A study of Mus musculus with 32 samples.

Results

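The genes that make serine and carry the amino acid response were followed through the small intestine of mice lacking fatty acid-binding proteins. The set holds 43 genes out of 18195 genes measured. They were chosen by name for their known place in these pathways, with earlier results of these data known. Counts of members beside shares of all genes are therefore descriptions. All 43 had at least 1 probe set that the platform annotation assigns to that gene alone, 94 probe sets in all, and 29 of the 43 had more than 1. All 43 entered the fit, since no filter on low signals was applied. Transcriptomes were measured with the Affymetrix mouse chips 430A and 430B, from total RNA of the whole small intestine, from stomach base to cecum, flushed with saline, of fasted 10-week-old mice on a standard diet. The 8 groups were males and females of wild-type C57BL/6J mice (WT), of mice without *Fabp2* (Fabp2-/-), the intestinal fatty acid-binding protein, of mice without *Fabp6* (Fabp6-/-), the ileal bile acid-binding protein, and of mice without both genes (Fabp2-/-;Fabp6-/-). The mutant lines were kept on the C57BL/6J background. Each group had 2 pools, each of RNA from 2 mice, so that differences between single mice cannot be seen. The gene disruption is present in all cells of the body. Because RNA came from whole tissue, fewer cells of a type and less RNA per cell cannot be told apart.

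Values are log2 signals after robust multichip average (RMA). The median signal per array ran from 6.57 to 6.62 for chip 430A and from 5.89 to 5.92 for chip 430B, and the small number of arrays limits the precision. *Fabp2* signals were 8.98 to 9.98 in the pools without the gene against 12.58 to 13.05 in the others. *Fabp6* was at 4.80 to 5.04 in 7 of its 8 null pools and at 10.5 to 11.32 where intact, but at 9.21 in the library labelled Fabp6-/- female replicate 2, which goes against its label. For WT female replicate 2 and Fabp2-/- female replicate 1, the 430A and 430B arrays did not match each other best over 100 shared probe sets. The margins were small. The correlation was 0.203 against 0.249 with the best other pool for WT female replicate 2, and 0.462 against 0.476 for Fabp2-/- female replicate 1. Counts of called members are therefore also given without these 3 female pools. That fit leaves 1 pool in each of the WT, Fabp2-/- and Fabp6-/- female groups. For fits with pools left out no share of all genes is given, so a changed count is not a result about the members. Digestive enzymes made by pancreatic acinar cells were abundant in every pool. Over 16 such genes, the median signal ran from 10.55 in WT male replicate 2 to 12.35 in Fabp2-/- female replicate 1.

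Serine is made from the glycolytic intermediate 3-phosphoglycerate in successive steps by *Phgdh*, *Psat1* and *Psph*. In mitochondria *Shmt2* passes a carbon of serine on to folate, and *Mthfd2* and *Aldh1l2* act on the folate-bound carbon. When amino acids run short or protein folding fails, kinases phosphorylate the translation factor eIF2, most protein synthesis slows, and translation of the transcription factor *Atf4* increases. *Atf4* pairs with C/EBP and other leucine zipper proteins on DNA and is known to induce enzymes of serine and asparagine synthesis, amino acid transporters, tRNA synthetases and regulators such as *Ddit3*, *Trib3* and *Atf5*. *Atf4* is therefore controlled largely at translation, and its mRNA is an incomplete measure of its activity.

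A gene was called differentially expressed (a DE gene) when limma, fitted over all genes of a chip, gave an FDR (the adjusted p) below 0.2 and a log2 fold change beyond 0.5 in either direction, with n = 2 pools in each group. The most DE members were found between the sexes of Fabp6-/- mice. In these mice *Phgdh*, *Psat1*, *Mthfd2*, *Asns*, *Pck2* and *Atf5* were lower in females, which is 6 of 43 members (14%), while 0.214% of all genes were DE and lower and 0.407% DE in either direction. Against WT mice of the same sex, *Asns* and *Chac1* were higher in Fabp6-/- males (2 members, with 0.352% of all genes DE and higher and 0.484% in either direction), and *Phgdh*, *Pck2* and *Atf5* were lower in Fabp6-/- females (3 members, with 0.22% of all genes DE and lower and 0.451% in either direction). *Atf5* was lower in Fabp2-/-;Fabp6-/- males (1 member, with 0.654% of all genes DE and lower and 1.6% in either direction), and *Phgdh* and *Mthfd2* were lower in Fabp2-/-;Fabp6-/- females (2 members, with 0.561% of all genes DE and lower and 0.929% in either direction). No member was DE in Fabp2-/- males (0.687% of all genes in either direction) or Fabp2-/- females (0.786%), or between the sexes of WT (0.236%), Fabp2-/- (0.0824%) or Fabp2-/-;Fabp6-/- mice (0.0769%). The 7 genes called in any comparison are spread over 4 roles: serine synthesis, mitochondrial folate metabolism, other amino acid enzymes and transcription factors.

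**Figure D1:**
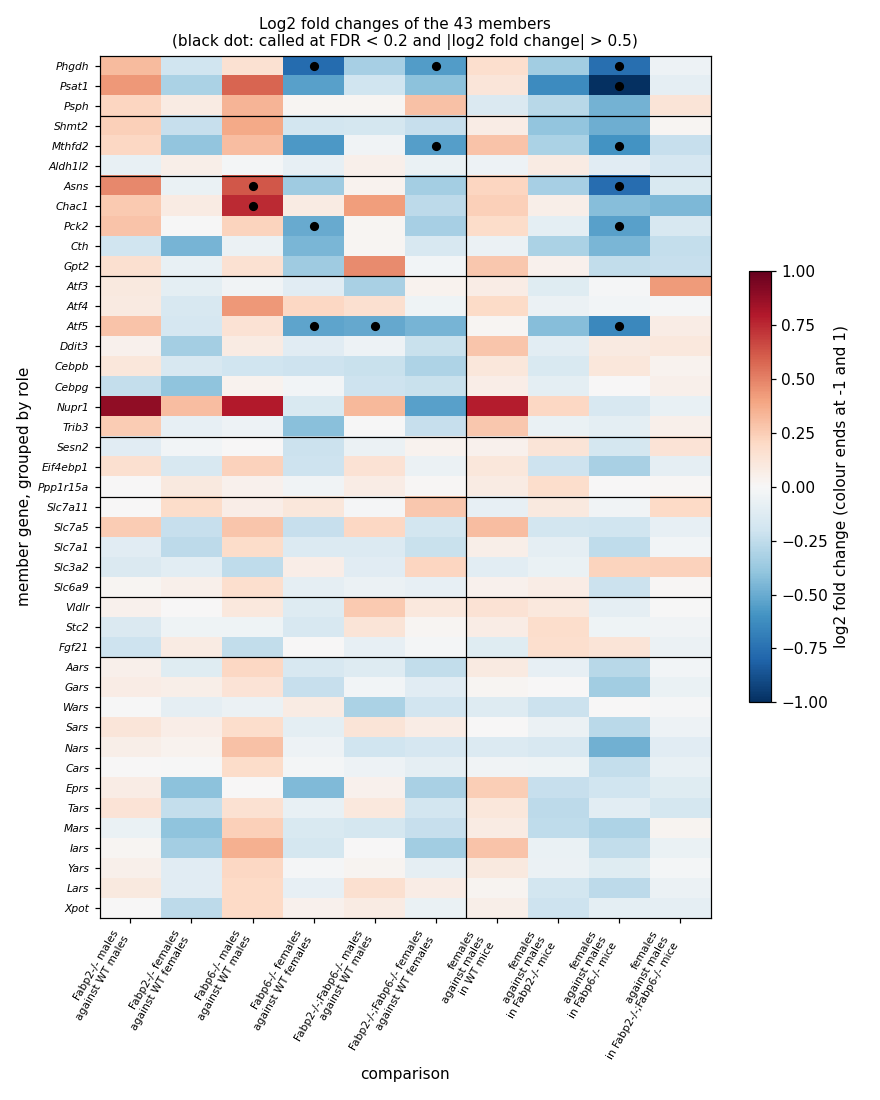
Log2 fold changes (colour) of the 43 members, grouped by role in rows, in the 6 comparisons of gene-disrupted with WT mice and the 4 of females with males, in columns. Black dots mark DE members, of which 6 lie in the column of Fabp6-/- females against males and none in the Fabp2-/- columns.

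*Psat1*, the aminotransferase of the second step of serine synthesis, showed the largest fold change of the called members. Its log2 signal was 7.57 and 7.37 in the Fabp6-/- male pools and 6.42 and 6.51 in the Fabp6-/- female pools. In WT mice it was 6.67 and 7.11 in males and 7.00 and 7.02 in females. The Fabp6-/- males thus lay above, and the Fabp6-/- females below, every WT pool. Females were lower than males by −1.0 ± 0.17 on the log2 scale (SE, limma adjusted p = 0.0193), the only member that also passed an FDR of 0.05. Without Fabp6-/- male replicate 1 the value was −0.90 and the call ended (adjusted p = 0.487). Against WT mice of the same sex, the log2 fold change was 0.58 (adjusted p = 0.209) in Fabp6-/- males and −0.54 (adjusted p = 0.259) in Fabp6-/- females, and neither passed. When all probe sets were fitted, a second *Psat1* probe set of lower mean signal gave −0.81 (SE 0.15, adjusted p = 0.0225) between the sexes of Fabp6-/- mice and −0.64 (adjusted p = 0.111) in Fabp6-/- against WT females, both past the thresholds. Among the Fabp2-/- pools the 2 males had 7.35 and 7.29, while the females were apart from each other with 7.02 and 6.37. In Fabp2-/-;Fabp6-/- mice, the males at 6.87 and 6.51 and the females at 6.66 and 6.54 overlapped.

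*Phgdh*, the dehydrogenase that commits 3-phosphoglycerate to serine, was lower in females lacking *Fabp6*, alone or together with *Fabp2*, than in WT females. The tested probe set read 7.24 and 7.55 in Fabp6-/- females, 8.30 and 8.0 in Fabp6-/- males, 8.34 and 7.98 in WT females and 8.06 and 7.93 in WT males. Both Fabp6-/- female pools lay below every pool of these other 3 groups. Without both genes the signals were 7.49 and 7.72 in females and 7.90 and 7.41 in males, so both females also lay under both WT females. Against WT females the log2 difference was −0.77 ± 0.17 (SE, adjusted p = 0.10) for Fabp6-/- females and −0.56 (adjusted p = 0.174) for Fabp2-/-;Fabp6-/- females. It was −0.75 (adjusted p = 0.0908) for females against males in Fabp6-/- mice. *Phgdh* in Fabp2-/-;Fabp6-/- males, at −0.34 against WT males, was not called.

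The size of the *Phgdh* difference depended on the probe set, and only the tested one was called. For Fabp6-/- against WT females the 4 probe sets gave −0.77, −0.54, −0.23 and −0.19, all of the same sign, and the smallest, with an adjusted p of 0.600, came from the brightest probe set, at a mean signal of 9.05. All 4 carry the suffix by which the manufacturer marks probes shared with other transcripts. A further 2 probe sets name *Phgdh* together with pseudogenes and were not used. Of the 2 *Mthfd2* probe sets, the tested one gave −0.55 in Fabp2-/-;Fabp6-/- females against WT females and the other −0.03.

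*Psph*, the phosphatase of the last step, was measured by the same probe set on both chips. On 430B its signal was 6.68 and 6.25 in Fabp6-/- males and 5.91 and 6.01 in Fabp6-/- females, without overlap. The sex difference was −0.51 (SE 0.13, adjusted p = 0.351) on 430B and −0.47 (adjusted p = 0.352) on 430A, neither of which passed the FDR. *Psph* was called there when only genes at or above the median interquartile range were tested, and with p-values adjusted over both chips. The other alternatives that keep all pools did not call it. The 3 serine synthesis genes thus all had negative values between the sexes of Fabp6-/- mice, with a median of −0.75, while their median was 0.12 between the sexes of WT mice.

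**Figure D2:**
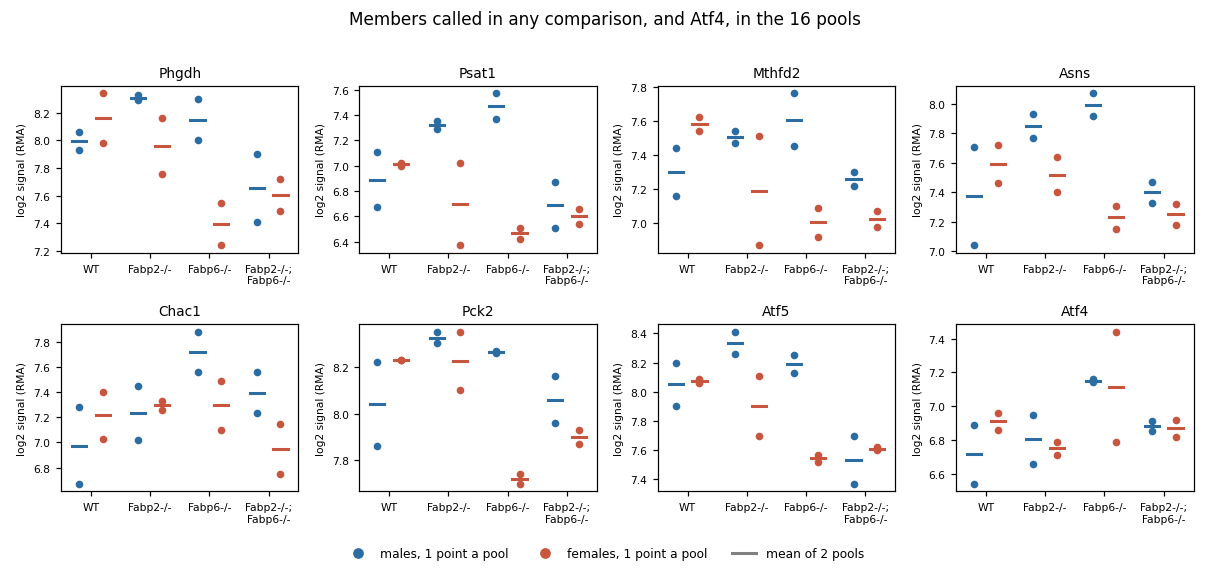
Log2 signals of the 7 members called in any comparison and of *Atf4*, 1 point a pool (males blue, females red) with a bar for the mean of 2 pools, by genotype. The axes have a separate range in each panel. *Psat1* lies between 7.37 and 7.57 in Fabp6-/- males and between 6.42 and 6.51 in Fabp6-/- females.

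**Figure D3:**
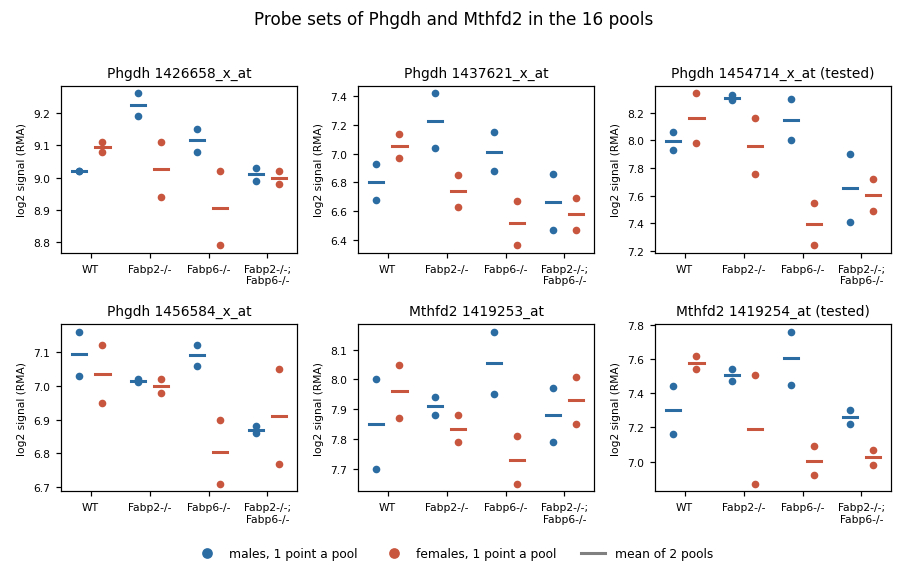
Log2 signals of the 4 *Phgdh* and 2 *Mthfd2* probe sets in the 16 pools (points, males blue and females red, with bars for the mean of 2 pools), each panel with a separate range. In all 4 *Phgdh* panels the mean of the Fabp6-/- females lies below that of the WT females, by 0.77 in the tested probe set and by 0.19 in the brightest.

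*Mthfd2*, the mitochondrial methylenetetrahydrofolate dehydrogenase, had signals of 7.09 and 6.92 in Fabp6-/- females and of 7.07 and 6.98 in Fabp2-/-;Fabp6-/- females, against 7.54 and 7.62 in WT females. These groups did not overlap. The log2 difference was −0.55 ± 0.16 (SE, adjusted p = 0.148) in Fabp2-/-;Fabp6-/- females, which was called, and −0.57 (adjusted p = 0.206) in Fabp6-/- females, which was just outside the FDR. Between the sexes of Fabp6-/- mice, with 7.76 and 7.45 in males, it was −0.60 (adjusted p = 0.191). This last call was lost under most alternatives, among them the fit of all probe sets (adjusted p = 0.211) and the omission of any of the 4 Fabp6-/- pools, where the value ran from −0.45 to −0.75. *Shmt2*, which splits serine into glycine and a folate-bound carbon in mitochondria, read 7.40 and 7.28 in Fabp6-/- males and 6.77 and 6.93 in Fabp6-/- females. Its sex difference of −0.49 (SE 0.11, adjusted p = 0.0967) passed the FDR and stayed under the fold threshold. *Aldh1l2*, which releases the carbon as carbon dioxide, had signals of 5.78 to 6.16 over all pools and was not called.

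Among the other enzymes, *Asns*, which makes asparagine, had signals of 8.07 and 7.92 in Fabp6-/- males, 7.31 and 7.15 in Fabp6-/- females, 7.04 and 7.71 in WT males and 7.46 and 7.72 in WT females. The Fabp6-/- males were above every pool of the other 3 groups, and the WT male pools were far apart. *Asns* was higher in Fabp6-/- than in WT males by 0.62 (SE 0.16, adjusted p = 0.159) and lower in Fabp6-/- females than males with −0.76 (adjusted p = 0.0635). The male difference was 0.28 without WT male replicate 1, and the brightest *Asns* probe set gave 0.44. Neither was called. *Chac1*, which degrades glutathione, read 7.88 and 7.56 in Fabp6-/- males and 6.67 and 7.28 in WT males, and was higher by 0.75 on the log2 scale (SE 0.21, adjusted p = 0.17). Its Fabp6-/- females, at 7.49 and 7.10, overlapped the WT females at 7.03 and 7.40.

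*Pck2*, the mitochondrial phosphoenolpyruvate carboxykinase, was at 7.74 and 7.70 in Fabp6-/- females, the lowest of all 16 pools, and at 8.23 in both WT female pools. In Fabp6-/- males it was at 8.26 and 8.27. The log2 difference was −0.50 ± 0.11 (SE, adjusted p = 0.10) against WT females and −0.54 (adjusted p = 0.0596) against Fabp6-/- males. Because the first value lies at the fold threshold, it was not called without Fabp6-/- female replicate 2 (−0.48, adjusted p = 0.124) or with cyclic loess (−0.49). A second *Pck2* probe set gave −0.20 against WT females.

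*Cth*, the lyase that releases cysteine from cystathionine, was chosen for description after its values were seen, since it passed the FDR in 3 comparisons and never the fold threshold. It read 8.88 and 8.62 in Fabp2-/- females and 8.77 and 8.73 in Fabp6-/- females, against 9.16 and 9.26 in WT females, without overlap. Its log2 fold changes against WT females were −0.47 (SE 0.10, adjusted p = 0.0530) and −0.46 (adjusted p = 0.10). *Gpt2*, the mitochondrial alanine aminotransferase, passed the FDR once, with 0.47 (adjusted p = 0.113) in Fabp2-/-;Fabp6-/- males. Its signals were low, at 4.71 and 4.21 against 4.03 and 3.95 in WT males. Another 430A probe set was also higher, at 4.63 and 4.35 against 4.19 and 4.24. A further one on 430A, at 4.50 and 4.34 against 4.57 and 4.30, overlapped WT males. So did the brightest, on 430B, at 7.06 and 6.93 against 6.96 and 6.98.

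The sequence TGATGNAA, bound in other genes by *Atf4* paired with C/EBP proteins, was searched on both strands of RefSeq promoters (GRCm38.p6) from 250 bases before to 50 bases after each transcription start. Of the 43 members, 35 had 1 or more such promoters, and *Aldh1l2*, *Cth*, *Eif4ebp1*, *Slc7a5*, *Wars*, *Nars*, *Cars* and *Lars* were not matched. The motif was present in 14 of 41 member promoters (34.1%) and in 1304 of all 32851 promoters (3.97%). Many members were chosen as known *Atf4* targets, and these shares are a description. By gene, it was present in 14 of 35 members (40%) and in 3 of 7 called members (42.9%), so called members held it about as often as the set. *Asns*, *Chac1* and *Pck2* were these 3, while no *Phgdh*, *Psat1*, *Mthfd2* or *Atf5* promoter window did. The other 11 members holding it were not called, namely *Trib3*, *Slc7a11*, *Fgf21*, *Atf3*, *Nupr1*, *Vldlr*, *Aars*, *Gars*, *Tars*, *Iars* and *Yars*. Shown in capitals, the 6 promoters let the motif of the 3 called genes be compared with that of 3 of the 11 that were not called; the reverse strand reads TTNCATCA:
Asns, chr6:7693160-7693459, minus strand: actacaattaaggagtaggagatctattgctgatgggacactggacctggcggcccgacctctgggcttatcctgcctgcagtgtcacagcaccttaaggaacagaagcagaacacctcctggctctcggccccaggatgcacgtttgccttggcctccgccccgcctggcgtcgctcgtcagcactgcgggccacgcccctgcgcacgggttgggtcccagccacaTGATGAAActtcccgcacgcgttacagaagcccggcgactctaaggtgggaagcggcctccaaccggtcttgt
Chac1, chr2:119350992-119351291, plus strand: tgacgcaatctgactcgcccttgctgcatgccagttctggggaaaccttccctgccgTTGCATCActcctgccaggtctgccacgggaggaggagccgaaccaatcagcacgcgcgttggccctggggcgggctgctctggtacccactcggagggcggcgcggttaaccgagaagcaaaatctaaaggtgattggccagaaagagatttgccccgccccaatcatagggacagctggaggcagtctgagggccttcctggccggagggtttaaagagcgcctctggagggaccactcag
Pck2, chr14:55540016-55540315, plus strand: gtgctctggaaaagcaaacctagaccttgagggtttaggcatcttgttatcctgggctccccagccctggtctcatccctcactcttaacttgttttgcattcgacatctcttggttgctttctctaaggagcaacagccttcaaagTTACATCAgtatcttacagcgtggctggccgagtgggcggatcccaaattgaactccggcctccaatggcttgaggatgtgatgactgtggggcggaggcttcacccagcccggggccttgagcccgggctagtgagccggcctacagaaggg
Trib3, chr2:152344011-152344310, minus strand: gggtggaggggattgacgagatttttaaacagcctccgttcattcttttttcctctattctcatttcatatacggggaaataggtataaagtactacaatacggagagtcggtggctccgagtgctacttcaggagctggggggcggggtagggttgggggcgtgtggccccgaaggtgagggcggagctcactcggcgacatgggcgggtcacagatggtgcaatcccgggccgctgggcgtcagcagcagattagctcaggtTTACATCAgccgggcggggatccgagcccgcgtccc
Slc7a11, chr3:50443564-50443863, minus strand: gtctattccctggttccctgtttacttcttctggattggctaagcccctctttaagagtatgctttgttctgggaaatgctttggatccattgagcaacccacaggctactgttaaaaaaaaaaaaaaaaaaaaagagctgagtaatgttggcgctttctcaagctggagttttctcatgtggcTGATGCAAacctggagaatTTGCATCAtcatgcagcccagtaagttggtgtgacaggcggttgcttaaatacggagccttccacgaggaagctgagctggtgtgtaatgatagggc
Fgf21, chr7:45615441-45615740, minus strand: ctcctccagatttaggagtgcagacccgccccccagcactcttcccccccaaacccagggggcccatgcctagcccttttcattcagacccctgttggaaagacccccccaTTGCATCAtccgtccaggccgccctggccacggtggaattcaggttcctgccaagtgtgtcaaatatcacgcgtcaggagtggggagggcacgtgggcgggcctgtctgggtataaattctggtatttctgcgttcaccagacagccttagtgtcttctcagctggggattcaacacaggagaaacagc
The motif began 23 bases before the start of *Asns*, 193 before that of *Chac1* and 103 before that of *Pck2*. *Slc7a11* held 2 copies in opposite orientation, beginning 66 and 47 bases before its start. A match describes these letters only, and binding was not measured.

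Of the 8 transcription factors and regulators, only *Atf5* was called. *Atf5*, a leucine zipper factor induced by *Atf4*, read 7.52 and 7.57 in Fabp6-/- females, 7.6 and 7.62 in Fabp2-/-;Fabp6-/- females and 7.70 and 7.37 in Fabp2-/-;Fabp6-/- males. In WT mice it was at 8.09 and 8.06 in females and 7.90 and 8.2 in males. None of these 3 groups overlapped WT mice of the same sex. On the log2 scale the difference was −0.53 ± 0.13 (SE, adjusted p = 0.165) in Fabp6-/- females, −0.51 (adjusted p = 0.0617) in Fabp2-/-;Fabp6-/- males and −0.46 (adjusted p = 0.151) in Fabp2-/-;Fabp6-/- females, the last under the fold threshold. In Fabp6-/- males, at 8.25 and 8.13, *Atf5* overlapped WT males, and the sex difference in Fabp6-/- mice was −0.65 (adjusted p = 0.0517).

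*Atf4* itself did not share this pattern. Its tested probe set read 7.16 and 7.14 in Fabp6-/- males and 7.44 and 6.79 in Fabp6-/- females, where the 2 pools lay on either side of the males, and the sex difference was −0.03. Against WT males at 6.54 and 6.89, the value in Fabp6-/- males was 0.43 ± 0.16 (SE, adjusted p = 0.377). The other 2 *Atf4* probe sets gave smaller values there, 0.15 for the brightest and 0.01 for the dimmest, neither called. *Ddit3*, the proapoptotic factor of the stress response, read 7.44 in both Fabp6-/- male pools and 7.54 and 7.47 in Fabp6-/- females, all above the WT pools at 7.20 to 7.25 on the 430A chip. Its differences of 0.19 in males and 0.28 in females (adjusted p = 0.491 and 0.225) were not called, and the *Ddit3* probe set on 430B gave 0.08 and −0.11. *Trib3*, a pseudokinase that restrains *Atf4*, had 6.79 and 5.81 in Fabp6-/- females, a spread wider than that of the 8 group means, and was not called.

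*Nupr1*, a small stress-induced chromatin protein named after its values were seen, had the widest range of the regulators. It was at 7.64 and 7.36 in WT males and at 8.07 and 8.71 in Fabp2-/- males, 0.89 apart on the log2 scale (SE 0.30, adjusted p = 0.377), which was not called. Its highest pool was Fabp2-/- female replicate 1 at 9.19, also the pool with the highest pancreatic signal, and the lowest were WT male replicate 2 and Fabp2-/-;Fabp6-/- male replicate 2 at 7.36, the 2 pools with the lowest. The part of pancreatic RNA in *Nupr1* was not tested.

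Another 3 regulators, described after their values were seen, were the leucine zipper factors *Atf3*, *Cebpb* and *Cebpg*. *Atf3* read 6.97 and 6.95 in Fabp2-/-;Fabp6-/- males, below all other pools, against 7.27 and 7.30 in WT males, and passed the FDR but not the fold threshold with −0.32 (adjusted p = 0.132). *Cebpg*, a partner of *Atf4*, had 8.34 and 8.29 in Fabp2-/- females against 8.60 and 8.82 in WT females, and likewise passed only the FDR with −0.40 (adjusted p = 0.157). *Cebpb* stayed between 6.10 and 6.62 in all pools and passed neither threshold in any comparison. Of the 3 genes of translation and growth control, the leucine sensor *Sesn2*, the cap-binding inhibitor *Eif4ebp1* and *Ppp1r15a*, which directs dephosphorylation of eIF2, none was called. Against WT mice their values lay between 0.01 and 0.23 in Fabp6-/- males and between −0.21 and −0.04 in Fabp6-/- females. The secreted or surface proteins *Fgf21*, *Stc2* and *Vldlr* lay between −0.24 and 0.11 in Fabp6-/- males and between −0.16 and 0.01 in Fabp6-/- females, none of them called.

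The 5 amino acid transporters had no DE member in any comparison. *Slc7a5*, which exchanges large neutral amino acids, read 8.12 and 8.18 in Fabp6-/- males against 7.84 and 7.91 in WT males, and 8.12 and 7.78 in Fabp6-/- females against 8.18 and 8.19 in WT females. Neither sex overlapped WT mice, in opposite directions, with log2 fold changes of 0.28 (SE 0.11, adjusted p = 0.455) and −0.23 (adjusted p = 0.579). *Slc3a2*, the heavy chain shared by *Slc7a5* and *Slc7a11*, lay between 10.35 and 10.89 in all pools and had −0.25 in Fabp6-/- males and 0.07 in Fabp6-/- females. *Slc7a11*, which imports cystine, stayed between 4.71 and 5.08 on 430A, under the median signal of that array, so that small changes would be hard to see. *Slc7a1*, for cationic amino acids, and *Slc6a9*, for glycine, were not called, with *Slc6a9* at 8.15 in both Fabp6-/- male and 7.94 in both Fabp6-/- female pools. *Fgf21*, a hormone of the fasting response, was at 5.88 to 6.32 on 430A.

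The tRNA synthetases and the export factor *Xpot*, 13 members that load amino acids on tRNA or move tRNA out of the nucleus, showed small differences and no DE gene. Between the sexes of Fabp6-/- mice 12 of the 13 had negative values, with a median of −0.24, and in Fabp6-/- males against WT males 12 of 13 were positive, with a median of 0.20. *Nars*, the asparaginyl synthetase, read 10.36 and 10.29 in Fabp6-/- males and 9.76 and 9.93 in Fabp6-/- females, a difference of −0.48 (SE 0.11, adjusted p = 0.0958) that passed the FDR and not the fold threshold. *Eprs*, the synthetase for glutamate and proline, had 7.33 and 7.26 in WT females and 6.78 to 7.02 in the 6 female pools of the 3 gene-disrupted genotypes. It passed the FDR in all of them, with −0.41 (adjusted p = 0.131) in Fabp2-/-, −0.44 (adjusted p = 0.116) in Fabp6-/- and −0.33 (adjusted p = 0.187) in Fabp2-/-;Fabp6-/- females, below the fold threshold each time. These 3 comparisons share the WT female pools, and *Nars* and *Eprs* were named after their values were seen. Over 26 synthetases outside the set, the median was −0.08 between the sexes of Fabp6-/- mice, and none was called.

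Between the sexes of Fabp6-/- mice, 20 of 43 members had an unadjusted p under 0.05 in limma, all lower in females, and 6.38% of all genes had such a p. In 36 of the 43 the value was negative, with a median of −0.21, while the median of all genes was −0.001. Both female pools lay below both male pools for 23 members (16.3% of all genes did). By role, all 3 serine synthesis genes, all 3 mitochondrial folate enzymes and all 5 other enzymes had negative values. So did 12 of 13 genes of tRNA synthetases and export, 4 of 5 amino acid transporters and 5 of 8 regulators. In translation and growth control 2 of 3 did, as did 2 of 3 secreted or surface proteins. Without Fabp6-/- male replicate 1 no member was called. The fits without the library labelled Fabp6-/- female replicate 2, alone or with the other doubted female pools, leave 1 Fabp6-/- female pool. Their counts of called members have no share of all genes beside them.

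**Figure D4:**
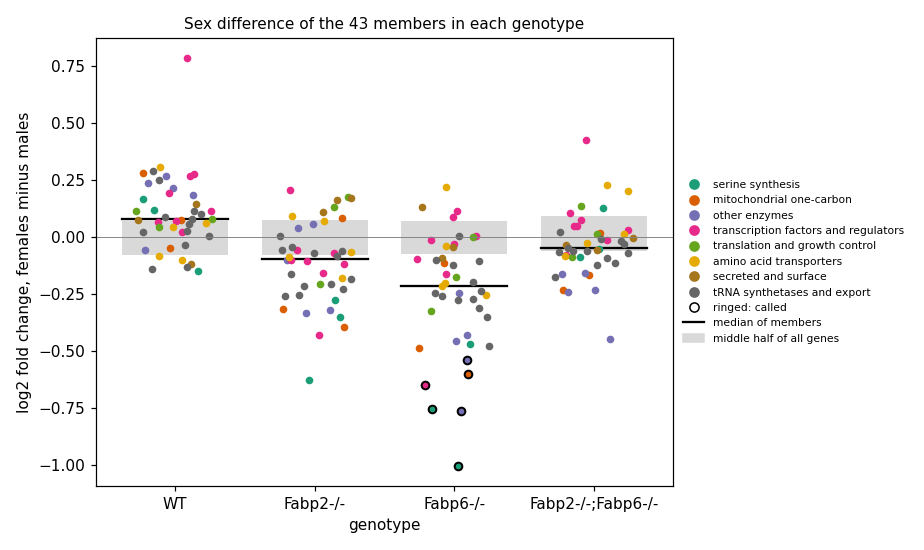
Log2 fold change of females minus males for each of the 43 members (points, coloured by role, ringed where DE) in the 4 genotypes, with the median of the members (line) and the interquartile range of all genes (grey). The median of the members lies above 0 in WT mice (0.08) and below 0 in the other genotypes, farthest in Fabp6-/- mice (−0.21).

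In WT mice the members leaned the other way, with 34 of 43 values positive and a median of 0.08. No member was DE in limma, 5 had an unadjusted p under 0.05, all higher in females, and 7.07% of all genes had such a p. *Slc7a5* was among them with 0.31 (adjusted p = 0.571). In Fabp2-/- mice 31 of 43 were negative with a median of −0.10, and 7 members had an unadjusted p under 0.05 (7.24% of all genes). Without Fabp2-/- female replicate 1, whose arrays did not match, 4 were called there, *Psat1*, *Mthfd2*, *Shmt2* and *Atf5*, all lower in females. The sexes of Fabp2-/-;Fabp6-/- mice had the smallest median, −0.05, and 3 members with an unadjusted p under 0.05 (6.82% of all genes).

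Whether the sex difference of a gene-disrupted genotype differed from that of WT mice was tested as an interaction. In Fabp6-/- mice 39 of 43 interaction values were negative, with a median of −0.32, and 19 members had an unadjusted p under 0.05, while 4.64% of all genes did. None was a DE gene after adjustment over all genes (0.0055% of all genes were). *Psat1* had the largest interaction of the set, −1.12 (SE 0.25, adjusted p = 0.637), followed by *Asns* with −0.98 (adjusted p = 0.763). With all pools, a difference between Fabp6-/- and WT mice in the sex difference is therefore not shown for any single member. Without the 3 doubted female pools, the interaction values of *Phgdh*, *Psat1* and *Shmt2* were −1.26, −1.16 and −0.69. These rest on 1 WT female pool and 1 Fabp6-/- female pool. In Fabp2-/- mice 35 of 43 were negative, 10 members had such a p (5.44% of all genes), and none was called (0.022% of all genes). Of the Fabp2-/-;Fabp6-/- interactions 34 were negative, 8 members had such a p (7.48% of all genes), and none was called (0.0055%). These 3 comparisons share the WT pools. *Asns* and *Pck2* were called in the Fabp6-/- interaction without WT male replicate 2, and *Psat1* without either Fabp2-/- female pool. Without Fabp2-/- female replicate 1, *Mthfd2* and *Psat1* were called in the Fabp2-/- interaction, with 1 Fabp2-/- female pool left.

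Set against WT mice of the same sex, the Fabp6-/- values had opposite signs in the sexes. In males 34 of 43 members were positive with a median of 0.16, against −0.01 for all genes, and 12 had an unadjusted p under 0.05 (10.4% of all genes). In females 35 of 43 were negative with a median of −0.14, and 10 had such a p (9.61% of all genes). Both Fabp6-/- male pools lay above both WT males for 24 members (21% of all genes), and both Fabp6-/- female pools lay below both WT females for 20 (18.1% of all genes). For 13 members the pools did not overlap WT mice in either sex, with opposite directions in the sexes, which was so for 4.2% of all genes. The 13 were *Psat1*, *Shmt2*, *Mthfd2*, *Asns*, *Pck2*, *Gpt2*, *Eif4ebp1*, *Slc7a5*, *Slc6a9*, *Aars*, *Gars*, *Sars* and *Iars*, and all of them were higher in males and lower in females. Each was read on 1 probe set, and that of *Gpt2*, on 430A, had signals of 3.82 to 4.71. Its 430B probe set overlapped in females, at 6.95 and 6.93 against 6.83 and 7.02 in WT mice. The male and female comparisons have no pool in common.

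**Figure D5:**
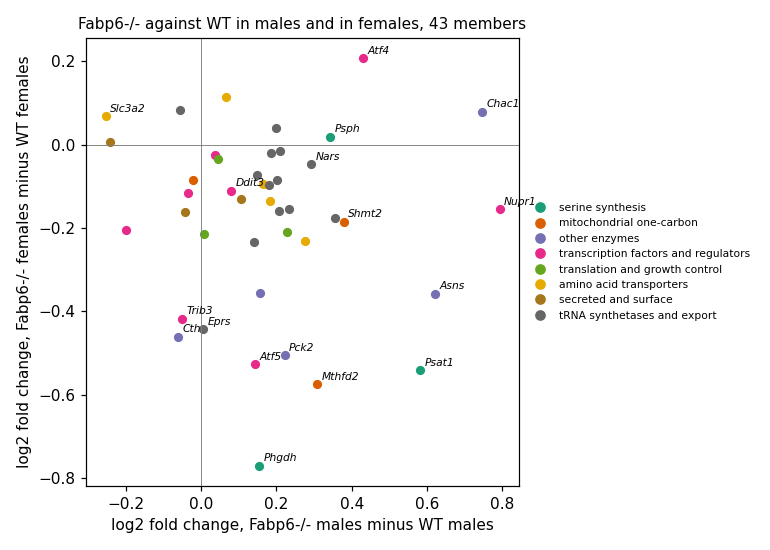
Log2 fold change of Fabp6-/- against WT in males (horizontal axis) and in females (vertical axis) for the 43 members, coloured by role. Most points lie to the right of 0 and below 0: 34 of 43 values are positive in males and 35 of 43 negative in females.

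The male calls rested on few pools. No member was called in Fabp6-/- males without WT male replicate 1, without either Fabp6-/- male pool, or without either Fabp2-/-;Fabp6-/- female pool, which enter only through the shared spread. There were 4 without WT male replicate 2, *Psat1* and *Iars* being added, and 4 without either Fabp2-/- female pool. WT male replicate 1 was low across the set, with 14 of 43 members above their mean over the 16 pools, against 29 in WT male replicate 2. In Fabp6-/- females no member was called without WT female replicate 1, 1 without WT female replicate 2, and 5 without either Fabp2-/- female pool. Without Fabp6-/- female replicate 1, *Phgdh* and *Atf5* were lost and *Eprs* and *Trib3* were called, both lower. Without the doubted replicate 2, *Pck2* was lost and *Atf4* was called in the other direction, higher by 0.53, with replicate 1 as the only pool. In that pool the brightest *Atf4* probe set read 10.31 against 9.98 and 10.09 in WT females. The dimmest went the other way, with 4.91 against 5.15 and 5.17. Without the 3 doubted female pools 4 members were called, *Phgdh* (−1.11), *Psat1* (−0.58) and *Atf5* (−0.57) lower and *Atf4* (0.59) higher, each from 1 pool against 1.

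Of the values in Fabp2-/-;Fabp6-/- females, 33 of 43 were negative against WT females with a median of −0.17, and 11 members had an unadjusted p under 0.05 (12.3% of all genes). Both pools lay below both WT females for 24 members (18.8% of all genes). *Phgdh* and *Mthfd2*, the 2 called, were both lost without either WT female pool or either Fabp2-/-;Fabp6-/- female pool, and *Phgdh* also without either WT male or either Fabp6-/- male pool. Fabp2-/-;Fabp6-/- males had 22 of 43 values negative with a median of −0.01, and 5 members had an unadjusted p under 0.05 (14.4% of all genes). Without WT male replicate 2, *Atf5* was lost there at −0.36 (adjusted p = 0.319) and *Chac1* and *Xpot* were called, and without Fabp2-/-;Fabp6-/- male replicate 2 it was lost at −0.35 and *Gpt2* called.

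Fabp2-/- mice were compared with the WT pools that also served for Fabp6-/- mice. In males 33 of 43 members were positive with a median of 0.07, and 6 had an unadjusted p under 0.05 (8.51% of all genes). *Asns* had 0.48 (SE 0.16, adjusted p = 0.383) at signals of 7.77 and 7.93, both above the WT males, and was called without WT male replicate 2. *Nupr1* was called without either Fabp2-/- female pool. *Slc7a11* was called higher without Fabp2-/- male replicate 2, from 1 pool and on 430B only. That pool read 4.40 on 430B against 3.91 and 3.87 in WT males, under the median signal of that array. On 430A it read 4.75 against 4.85 and 4.83, in the other direction. In Fabp2-/- females 31 of 43 were negative with a median of −0.11, and 9 members had an unadjusted p under 0.05, all lower (11.1% of all genes). Without Fabp2-/- female replicate 1, *Cth*, *Eprs*, *Mars*, *Mthfd2* and *Psat1* were called, with replicate 2 as the only pool of that group. Without WT female replicate 1, *Cebpg*, *Cth* and *Mars* were called, with 1 WT female pool left. The 2 Fabp2-/- female pools differed, with 28 of 43 members above their mean in replicate 1 and 9 in replicate 2.

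Related genes outside the set were followed as lists. Those of folate and glycine enzymes and carriers of cytosol and mitochondria (19 genes), eIF2 kinases and translation factors (15), the unfolded protein response of the endoplasmic reticulum (21), other amino acid transporters (21), targets of NRF2 (14) and mTORC1 and autophagy (19) held no DE gene in Fabp6-/- males or females against WT mice or between the sexes of Fabp6-/- mice. Their medians between the sexes lay between −0.05 and 0.09. The NRF2 list, which includes genes of glutathione synthesis, had DE genes in the other genotypes. In Fabp2-/- males (0.687% of all genes DE) 3 of 14 were called, *Me1*, the cytosolic malic enzyme, higher with 0.80 and both subunits of the first enzyme of glutathione synthesis, *Gclc* and *Gclm*, lower with −0.66 and −0.58. In Fabp2-/- females (0.786% of all genes DE) 5 were called, *Me1* higher with 0.70 and *Gclc* (−0.80), *Gclm* (−0.63) and the glutathione transferases *Gsta3* (−0.54) and *Gstm1* (−0.69) lower. The males lacking both genes (1.6% of all genes DE) had 4, with *Me1* (0.85), *Gsta3* (0.90) and *Gclc* (0.60) higher and the glutathione reductase *Gsr* (−0.60) lower, and the females lacking both (0.929% of all genes DE) had *Me1* higher with 0.62. Of the 21 genes of the unfolded protein response, the chaperone *Hyou1* was higher in Fabp2-/- females with 0.54, *Creld2* was lower with −0.65 in males lacking both genes and *Calr*, calreticulin, was lower with −0.51 in females lacking both. The remaining calls were 1 a list, the kinase *Eif2ak2* lower in Fabp2-/- females (−0.56) and, in males lacking both genes, the folate carrier *Slc46a1* (0.57), the transporter *Slc6a20a* (0.71) and *Sesn1* (0.52) higher.

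Markers of other cells moved with some of these comparisons. The 16 pancreatic acinar genes, none of which was called in the Fabp6-/- comparisons, had a median fold of 0.69 in Fabp6-/- males and −0.49 in Fabp6-/- females against WT mice, the signs of the members. Their summed level on the log2 scale was 15.88 and 15.49 in Fabp6-/- males, 15.32 and 15.77 in Fabp6-/- females, 15.37 and 14.66 in WT males and 16.03 and 15.93 in WT females. The acinar medians had the sign of the member medians in most other comparisons too, but not in males lacking both genes or between the sexes of Fabp2-/- mice. Between the sexes of WT mice the acinar median was 1.01, and it was −1.16 in the Fabp6-/- interaction, −0.84 in the Fabp2-/- interaction and −1.14 in that of mice lacking both genes. It was 0.79 in Fabp2-/- males, with *Ctrc* and *Prss3* DE and higher, −0.06 in Fabp2-/- females, 0.49 in males lacking both genes and −0.66 in females lacking both, with *Prss2* DE and lower. Within a gene-disrupted genotype the acinar sex differences were smaller, at 0.15 in Fabp2-/-, −0.13 in Fabp2-/-;Fabp6-/- and −0.11 in Fabp6-/- mice. For 17 genes of crypt stem and dividing cells the summed level was 12.46 and 12.44 in Fabp6-/- males and 12.17 and 12.24 in Fabp6-/- females, with a median of −0.31 and no DE gene. Of 9 T cell genes 2, *Gzma* and *Gzmb*, were DE and lower in Fabp6-/- females than males (0.407% of all genes DE). The summed T cell level was 10.86 and 10.92 in these females against 11.54 and 11.43 in the males. Of 7 hepatocyte genes 2, *Alb* and *Ttr*, were DE and higher there (summed level 8.90 and 9.35 against 8.34 and 8.19). Of 10 stomach genes, *Muc5ac* was DE and higher in Fabp6-/- males (0.484% of all genes DE) and in Fabp6-/- females (0.451%) against WT mice. The summed stomach levels were 13.49 to 13.88 in Fabp6-/- and 12.35 to 13.48 in WT pools. The 11 genes of the intestinal epithelium had sums of 15.41 to 15.61 in all pools, of which *Lct* was DE and higher in Fabp6-/- females than males. In males lacking both genes, 5 of 10 stomach genes, 2 of 7 hepatocyte genes and *Cdx2* were DE and higher. There 4 of 9 T cell genes were DE and lower (1.6% of all genes DE). In females lacking both (0.929%), 3 T cell genes were lower and 2 hepatocyte genes higher. In Fabp2-/- males (0.687%) 2 T cell genes were lower and *Gkn3* higher. In Fabp2-/- females (0.786%) *Gzma* and *Mcm5* were lower. The part of these cells in the results was not tested.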

How the data were processed

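Per the labels and the study's methods, RNA pools were hybridized to 16 arrays of each chip, and the authors made the deposited log2 values from the raw intensities by robust multichip average (RMA, version not given in the sources used here), with background correction and quantile normalization. The raw arrays were not used here. Probe sets naming several genes or none were left out, and 1 probe set per gene and chip was kept, that of largest interquartile range over the 16 arrays (12394 genes on 430A, 9612 on 430B, 3811 on both, counted once). Group means were fitted with limma 3.58.1 in R 4.3.3 (8 residual degrees of freedom, two-sided moderated test) and p-values adjusted after Benjamini and Hochberg within each chip and comparison. The thresholds of the study's methods were used (FDR below 0.2, log2 fold change beyond 0.5). The study's filter on interquartile range was not applied in the main fit. The 13 comparisons were 6 with WT mice within a sex, 4 of females with males and 3 interactions. In counts of DE genes, a gene on both chips was called where either chip called it. Counts by unadjusted p, by sign and of groups without overlap, and the medians, take 1 probe set a gene. The fit was tested on simulated data.

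The 43 members and the lists were chosen with earlier results of these data known, and their counts are descriptions. The genes named were every called member, 14 members set by name for their place in the pathway, members whose probe sets disagreed at a call, called members of the lists, and *Fabp2* and *Fabp6*. The other members described, among them *Gpt2*, *Slc6a9* and *Aldh1l2*, lay outside this rule. Only some of these are marked in the text as named after their values were seen. The replicate numbers gave no pairing: over 28 pairs of groups, the deviations of same-numbered pools had a median correlation of −0.02 on 430A. Alternatives were the brightest probe set, all probe sets, a low-signal filter (log2 signal of 6 in at least 2 arrays), genes at or above the median interquartile range, only the groups compared, adjustment over both chips, an intensity trend with robust prior, cyclic loess, a replicate block, an FDR under 0.05 and omission of each pool. Omission of the 3 doubted female pools together was added after the data were seen. No columns of per-sample values were left unused.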

Additional observations from a re-analysis of the deposited data

Results flagged for a closer look

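Members whose Fabp6-/- and WT pools did not overlap in either sex, with opposite directions in males and females, are given here by the interaction of sex with genotype against WT mice, tested in limma on the log2 scale. None passed an FDR of 0.2. In Fabp6-/- mice the values were −1.12 for *Psat1* (adjusted p = 0.637), −0.98 for *Asns* (0.763), −0.88 for *Mthfd2* (0.953) and −0.73 for *Pck2* (0.637). They were −0.56 for *Shmt2*, −0.53 for *Iars*, −0.51 for both *Gpt2* and *Slc7a5*, −0.44 for *Eif4ebp1*, −0.37 for both *Gars* and *Aars*, −0.28 for *Sars* and −0.26 for *Slc6a9*, each with an adjusted p of 0.9999.

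The same pattern met 3 members in Fabp2-/- mice, *Mthfd2* with −0.60, *Slc7a5* with −0.49 and *Shmt2* with −0.47 (adjusted p = 0.939 for each). In Fabp2-/-;Fabp6-/- mice it met only *Slc7a5*, with −0.39 (adjusted p = 0.531). Pools that did not overlap with opposite directions were found for 4.65% of all genes in Fabp2-/- and 6.1% in Fabp2-/-;Fabp6-/- mice. No group had enough pools to look for a pool apart from its group.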

How the results depend on the processing

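The deposited values rest on 2 pools a group, 3 female pools are in doubt, and low signals limit members such as *Slc7a11*. Of the values of called members under the alternatives, 296 stayed on their side of the thresholds, 82 were no longer called and none changed sign. At an FDR under 0.05, 1 member was called between the sexes of Fabp6-/- mice, and 0 in Fabp6-/- males, Fabp6-/- females and Fabp2-/-;Fabp6-/- males and females. With only the groups compared, the counts were 1 in Fabp2-/- males, 4 in Fabp6-/- males, 5 in Fabp6-/- females, 1 between the sexes of WT mice and 1 in the Fabp6-/- interaction. The brightest probe set gave 1 in Fabp6-/- males and 0 in Fabp2-/-;Fabp6-/- females, the intensity trend 1 in each, and cyclic loess 1 in Fabp6-/- males. Between the sexes of Fabp6-/- mice the brightest probe set lost the calls of *Phgdh* and *Mthfd2*. In Fabp6-/- females it lost that of *Phgdh*. Without the 3 doubted female pools there were 1 in Fabp2-/- males, 3 in Fabp2-/- females, 4 in Fabp6-/- males, 4 in Fabp6-/- females, 5 between the sexes of Fabp2-/- mice, 9 between those of Fabp6-/- mice and 3 in each of the Fabp2-/- and Fabp6-/- interactions. Without 1 pool at a time the range was 0 to 1 in Fabp2-/- males, 0 to 5 in Fabp2-/- females, 0 to 4 in Fabp6-/- males, 0 to 5 in Fabp6-/- females, 1 to 2 in Fabp2-/-;Fabp6-/- males and 0 to 2 in their females. Between the sexes it was 0 to 4 in Fabp2-/- and 0 to 7 in Fabp6-/- mice, 0 to 2 in each of the Fabp2-/- and Fabp6-/- interactions, and 0 throughout for the other sex comparisons and interaction. The 1 pool left in a group by an omission was taken to vary as the other groups do. Shares of all genes called are not given for these alternatives, so changes in count are not results about the members. A replicate block called the same numbers of members, 6 between the sexes of Fabp6-/- mice, and the numbers do not pair the pools. Testing only genes at or above the median interquartile range added *Psph* between the sexes of Fabp6-/- mice. It also added *Psat1* in Fabp6-/- males and *Mthfd2* in Fabp6-/- females. The cause of these changes was not tested.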
